A study of Mus musculus with 10 samples.

Results

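Components and targets of the canonical Wnt pathway were examined in the cortex of Chd8 knock-in (KI) mice and wild-type (WT) mice. The set of 58 genes was chosen by name, as ligands, receptors, cytoplasmic regulators, nuclear factors and targets of the pathway, with the thalamic Tcf7l2 and Lef1 left out. Of the 58, 57 were among the 13661 genes listed in the authors' deposited table. The 1 gene without a value was Wif1, which encodes a secreted Wnt inhibitor. The series holds 5 KI and 5 WT libraries of poly(A) RNA, each from the cortex of a male at 8 weeks of age, and its title presents the KI allele as a model of duplication of the autism-related gene Chd8. The KI animals carry the labelled genotype Chd8 KI and the WT animals the genotype Wild-type, with no further allele or treatment labelled in either group. The construct, the site of insertion, the promoter that drives it and the strain were not stated in the labels.

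Wnt ligands bind Frizzled receptors and the co-receptors LRP5 and LRP6 at the cell surface. Without a ligand, a destruction complex of APC, AXIN, GSK3 and casein kinase 1 marks beta-catenin for degradation. With a ligand, Dishevelled disables that complex, and beta-catenin enters the nucleus, where it binds TCF/LEF factors and switches on target genes, several of which feed back on the pathway. In the brain the pathway patterns the embryonic cortex, sustains the blood-brain barrier and acts at synapses. CHD8, an ATP-dependent chromatin remodeller, has been described as a binding partner of beta-catenin that restrains Wnt targets, so the question here is whether pathway transcripts differ where Chd8 is raised.

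In KI cortex Chd8 itself stood 1.40-fold above WT (95% interval 1.22 to 1.61, adjusted p = 0.0044 by DESeq2) in the authors' deposited table. That table leaves the direction of its fold changes unnamed. They are taken here as KI relative to WT, the choice under which Chd8 is raised, and every direction below rests on it, so the sign of Chd8 is no check of the labels. The table gives 1 mean normalised count per gene over all libraries, so a value for each animal cannot be shown and levels below are for KI and WT together. Of markers read to check the labelled tissue, 8 of cortical excitatory neurons had a median level of 492 normalised counts per kilobase of transcript, against 75.1 for 11 listed thalamic, 75.6 for 10 choroid plexus and 80.0 for 12 meningeal markers. The median of 8 striatal markers was 541, so these levels do not separate cortex from striatum. Markers of adjoining tissue, in lists written with earlier results of these data known, had a median log2 fold change of -0.48 over the thalamic markers (1 above 0), -0.33 over the choroid plexus markers (none above 0) and -0.24 over the meningeal markers (none above 0), and 4 thalamic markers and 1 meningeal marker fell past the adjusted threshold (DESeq2). Their part in the values below was not tested.

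None of the 57 listed members passed an adjusted p of 0.05, in either direction, in the authors' deposited table (DESeq2 Wald test, Benjamini-Hochberg adjustment over 13660 genes), where 0.0732% of all genes passed, 0.00732% higher and 0.0659% lower in KI. Tcf7l2, a nuclear factor left out of the set, did pass, lower in KI (adjusted p = 0.0022 by DESeq2). The absence of passing members thus holds only for the set as chosen. None of the 57 had an unadjusted p under 0.05 either, against 3.22% of all genes, and 2 of the 57 had one under 0.1, against 6.6%. The members' median log2 fold change was 0.0084, against 0.0025 over all genes, and 32 of 57 (56.1%) were above 0, against 51.6% of all genes. With the trend of fold change on transcript length removed, the members' median became -0.0066 and 26 of 57 were above 0. Over the 41 members with a mean count of at least 200 the median was 0.016. Of these 41, 26 (63.4%) were above 0, against 52.2% of all genes at that level. In 48 of the 57 the log2 fold change lay within 0.1 of 0, which is 84.2% of members and 76.0% of all genes. Of the other 9, the values of Lrp5 and Fzd8 were above 0 and those of Wnt5a, Wnt5b, Wnt7a, Fzd5, Fzd9, Fzd10 and Rnf43 below it.

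The intervals show how large a change these libraries could still hold. The 95% interval lay within ±0.5 on the log2 scale for 52 of 57 members (91.2%), against 88.5% of all genes, and within ±0.25 for 32 of 57 (56.1%), against 54.9%. The log2 fold change of Chd8, 0.49 when taken without its own interval, is close to the ±0.5 bound. A change as large as that of Chd8, in either direction, lay outside the interval for 52 of 57 members (91.2%), against 87.7% of all genes. It lay inside the interval for Wnt5b, Rnf43, Fzd5, Fzd9 and Fzd10. Precision followed abundance. All 41 members whose mean normalised count reached 200 had intervals within ±0.5, as did 98.2% of all genes at that level. The median standard error (SE) of the log2 fold changes was 0.079 for these 41 members, against 0.18 for the 16 weaker members. Over all genes split at the same count, the medians were 0.077 and 0.17. The narrowest interval was that of Ctnnb1 and the widest that of Fzd5. A p above the threshold does not show that a gene had the same level in KI and WT cortex. In whole cortex, moreover, a change in the number of cells of a type cannot be told apart from a change in RNA per cell.

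**Figure D1:**
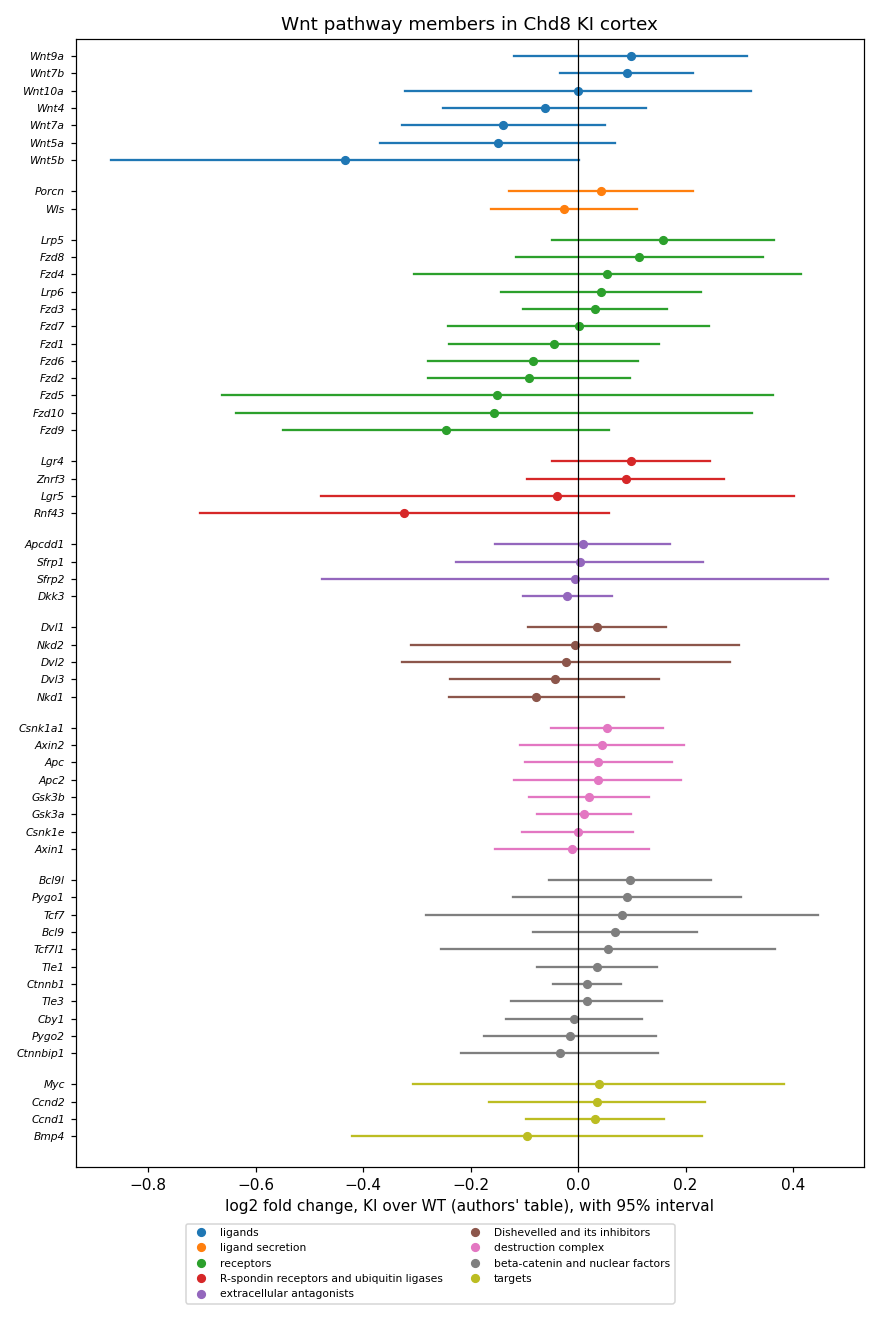
Log2 fold change of the 57 listed members, KI over WT, from the authors' deposited table (x axis), with 1 row per gene grouped and coloured by role. Points are the deposited values and lines their 95% normal intervals. Every interval includes 0, and the widest, such as that of Fzd5, belong to weakly expressed genes.

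Pathway transcripts spanned a 341-fold range of abundance, compared here as the mean normalised count per kilobase of the longest annotated transcript. Ctnnb1, encoding beta-catenin, was the most abundant at 2897 per kilobase, followed by Dkk3 at 2095, Gsk3a at 1564 and Csnk1a1 at 1179. The least abundant were Fzd5 at 8.5 and Lgr5 at 11.5 per kilobase. By role, the median level per kilobase was 580 for the destruction complex, 336 for ligand secretion, 148 for beta-catenin and nuclear factors, 136 for targets, 87.6 for Dishevelled and its inhibitors, 86.1 for ligands, 53.4 for extracellular antagonists, 49.2 for receptors and 31.1 for R-spondin receptors and their ubiquitin ligases, against 169 over all genes. The destruction complex and the nuclear factors thus had higher median levels than receptors, ligands and antagonists, and smaller median SEs. These levels describe KI and WT cortex together and carry no replicate error.

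**Figure D2:**
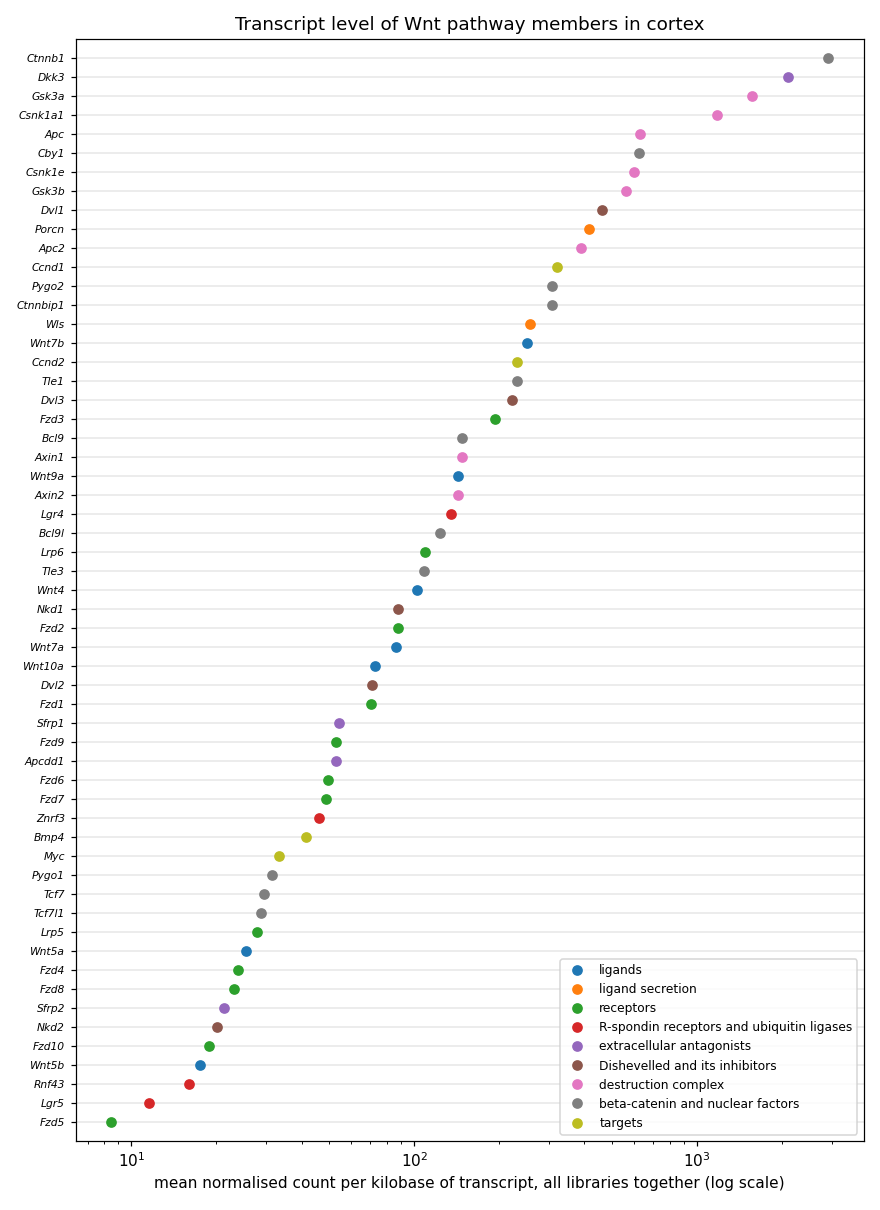
Level of each of the 57 listed members (rows, most abundant at the top) as mean normalised count per kilobase of transcript over KI and WT libraries together (x axis, log scale), coloured by role. Ctnnb1 heads the order at 2897 and Fzd5 closes it at 8.5.

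Among the 7 ligands, 3 had log2 fold changes above 0 and 4 below, with a median of -0.062 that became 0.014 over the 4 ligands whose mean count reached 200, and none passed the threshold. Wnt5b, a ligand that mostly signals independently of beta-catenin, had the largest deviation of the whole set. It stood at 0.741 of the WT level in KI cortex (95% interval 0.548 to 1.001, log2 fold change -0.43, SE 0.22, unadjusted p = 0.0508, adjusted p = 0.9999 by DESeq2) in the authors' deposited table. This was also 1 of the weakest transcripts, with a mean normalised count of 41.4. Its closest relative Wnt5a, another ligand with mostly beta-catenin-independent action, stood at -0.15 (SE 0.11) in the authors' deposited table. The pair Wnt7a and Wnt7b, which neural cells send to brain endothelium to maintain the blood-brain barrier, lay on opposite sides of 0. Wnt7a stood at -0.14 (SE 0.096, unadjusted p = 0.148 by DESeq2) and Wnt7b at 0.090 (SE 0.063, unadjusted p = 0.154) in the authors' deposited table, and both intervals include 0. At 251 per kilobase Wnt7b was the most abundant ligand, against 86.1 for Wnt7a and 17.5 for Wnt5b, the least abundant. Log2 fold changes of the remaining ligands in the authors' deposited table were 0.098 for Wnt9a (SE 0.11), 0.0001 for Wnt10a (0.16) and -0.062 for Wnt4 (0.096).

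Promoter sequences were looked at because TCF/LEF factors, the DNA-binding partners of beta-catenin, recognise the core CTTTGAT. RefSeq promoter windows of GRCm38.p6, from 250 bases before to 50 after a gene's start, were matched for 35 of the 57 listed members, in 49 windows. The 7-base motif, read on both strands (CTTTGAT or ATCAAAG), was present in 1 of the 49 windows (2.04%) and in 2.44% of the 13791 windows of all tested genes. Its shorter core, contained in it (CTTTGA or TCAAAG), was in 4 windows (8.16%), against 11.6% of all windows. The 1 window with the full motif was 1 of the 3 of Wnt5b, the member furthest from 0, and the shorter core was also found in front of Fzd1, Gsk3a and Gsk3b. These stretches are shown 5′ to 3′ on the strand of the gene, with the match in capitals, since they are the only members among those matched that hold the letters of the motif.
Wnt5b: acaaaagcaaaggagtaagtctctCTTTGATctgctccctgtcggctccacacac
Fzd1: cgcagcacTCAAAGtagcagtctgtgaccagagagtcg
Gsk3a: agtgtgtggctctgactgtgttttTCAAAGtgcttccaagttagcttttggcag
Gsk3b: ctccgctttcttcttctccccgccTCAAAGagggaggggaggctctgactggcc
The Wnt5b stretch lies at chr6:119449427-119449481 on the minus strand, and its motif begins 71 bases before that start site. The Fzd1 stretch is chr5:4758429-4758466 on the minus strand, with the core 242 bases before the start. For Gsk3a it is chr7:25237979-25238032 on the minus strand, with the core 157 bases before the start, and for Gsk3b chr16:38088900-38088953 on the plus strand, with the core 77 bases before. A match of letters is not evidence of binding, and the single window of Axin2, the most widely used Wnt target, held neither form. Log2 fold changes of the other 3 genes shown here were -0.045 for Fzd1 (SE 0.10), 0.011 for Gsk3a (0.045) and 0.020 for Gsk3b (0.057) in the authors' deposited table.

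Ligand secretion depends on Porcn, the acyltransferase that lipidates Wnt proteins, and on Wls, the carrier that takes them to the cell surface. In KI cortex Porcn stood at 1.03 of WT (95% interval 0.915 to 1.16, unadjusted p = 0.621 by DESeq2) in the authors' deposited table. The log2 fold change of Wls there was -0.026 (SE 0.069).

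Of the 12 receptors, 6 were above 0 and 6 below, with a median log2 fold change of -0.022 that became 0.0013 over the 7 whose mean count reached 200. The smallest p belonged to Fzd9, which stood at 0.844 of WT in KI cortex (95% interval 0.683 to 1.04, unadjusted p = 0.113, adjusted p = 0.9999 by DESeq2) in the authors' deposited table, at a mean normalised count of 122. Both co-receptors had positive values there, with log2 fold changes of 0.16 for Lrp5 (SE 0.11, unadjusted p = 0.134 by DESeq2) and 0.043 for Lrp6 (0.095), and neither passed. Lrp6 was the more abundant at 109 per kilobase, against 27.7 for Lrp5. The predominant Frizzled transcript was Fzd3, a receptor best known for axon guidance and planar polarity, at 193 per kilobase. Its log2 fold change in the authors' deposited table was 0.031 (SE 0.069), and the interval from 0.931 to 1.12 of WT was the narrowest among the Frizzled genes. Fzd4, the Norrin receptor of vascular endothelium, stood at 0.055 (SE 0.18) and Fzd8 at 0.11 (0.12) in the authors' deposited table. The others there were 0.0013 for Fzd7 (0.12), -0.084 for Fzd6 (0.099), -0.092 for Fzd2 (0.096), -0.15 for Fzd5 (0.26) and -0.16 for Fzd10 (0.25). Fzd5 and Fzd10 had mean normalised counts of 58.8 and 61, and their intervals reach beyond ±0.5.

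Receptor turnover is set by ZNRF3 and RNF43, ubiquitin ligases that remove Frizzled from the membrane, and by LGR4 and LGR5, R-spondin receptors that silence those ligases. Rnf43 stood at 0.799 of WT in KI cortex (95% interval 0.614 to 1.04, log2 fold change -0.32, SE 0.19, unadjusted p = 0.096, adjusted p = 0.9999 by DESeq2) in the authors' deposited table, at a mean normalised count of 69.2. Its paralog Znrf3, measured at 46.1 per kilobase against 16.1 for Rnf43, had a log2 fold change of 0.088 (SE 0.093) in the authors' deposited table. The log2 fold change was 0.099 for Lgr4 (SE 0.075, unadjusted p = 0.186 by DESeq2) and -0.039 for Lgr5 (0.22) in the authors' deposited table. Lgr4, at 135 per kilobase, was the predominant R-spondin receptor of the pair, with Lgr5 at 11.5.

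Extracellular antagonists deviated least. All 4 listed members lay between -0.020 and 0.0084 on the log2 scale. Dkk3, a divergent member of the Dickkopf family, stood at 0.986 of WT in KI cortex (95% interval 0.931 to 1.04, unadjusted p = 0.632 by DESeq2) in the authors' deposited table, with a mean normalised count of 7037. Apcdd1, a membrane-bound inhibitor that is itself a Wnt target, had a log2 fold change of 0.0084 (SE 0.083) in that table. The secreted Frizzled-related decoys Sfrp1 and Sfrp2 had 0.0031 (0.12) and -0.0057 (0.24) in the authors' deposited table.

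Dishevelled relays the signal from receptor to destruction complex, and the Naked cuticle proteins bind and inhibit it. Dvl1, the most abundant of the 5 genes at 460 per kilobase, had a log2 fold change of 0.035 (SE 0.065) in the authors' deposited table. Values for Dvl2 and Dvl3 in the authors' deposited table were -0.022 (0.16) and -0.043 (0.099). Nkd1, the member of this group with the smallest p, stood at 0.947 of WT (95% interval 0.846 to 1.06, unadjusted p = 0.347 by DESeq2) in the authors' deposited table, and Nkd2 had a log2 fold change of -0.0064 (SE 0.16).

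The destruction complex was the most precisely measured group. All 8 of its genes had 95% intervals within ±0.25 on the log2 scale. The share was 54.9% over all genes and 72.4% over all genes with a mean count of at least 200. Of the 8 values, 6 were above 0 and 2 below, where 51.6% of all genes were above 0. Their median of 0.028 became -0.00027 with the length trend removed. Csnk1a1, the casein kinase that primes beta-catenin for GSK3, stood at 1.04 of WT in KI cortex (95% interval 0.966 to 1.12, unadjusted p = 0.311 by DESeq2) in the authors' deposited table. The scaffold genes Apc and Apc2, the second enriched in neurons, had log2 fold changes of 0.038 (SE 0.070) and 0.036 (0.079) in the authors' deposited table. For the GSK3 kinases, the interval in KI relative to WT ran from 0.948 to 1.07 for Gsk3a and from 0.938 to 1.10 for Gsk3b. Axin1, the constitutive scaffold, stood at -0.011 (0.073) and Csnk1e, a kinase that also acts on Dishevelled, at -0.0011 (0.053) in the authors' deposited table. Axin2, the scaffold induced by Wnt signalling and commonly read as its reporter, stood at 1.03 of WT (95% interval 0.928 to 1.15, log2 fold change 0.044, SE 0.077, unadjusted p = 0.567 by DESeq2) in the authors' deposited table.

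Beta-catenin and its nuclear partners had 8 values above 0 and 3 below, where 51.6% of all genes were above 0. Their median log2 fold change of 0.035 became 0.016 over the 9 whose mean count reached 200. Ctnnb1 stood at 1.01 of WT in KI cortex, with a 95% interval of 0.968 to 1.06, at a mean normalised count of 10497 in the authors' deposited table. BCL9 proteins tie beta-catenin to the PYGO coactivators. Bcl9l had the smallest p of the group, at 1.07 of WT (95% interval 0.964 to 1.19, unadjusted p = 0.206 by DESeq2), and Bcl9 a log2 fold change of 0.069 (SE 0.078) in the authors' deposited table. The coactivator genes Pygo1 and Pygo2 had 0.091 (0.11) and -0.015 (0.081) in the authors' deposited table, and Pygo2 was the more abundant at 307 per kilobase, against 31.3. The corepressor genes Tle1 and Tle3 stood at 0.035 (0.057) and 0.016 (0.072), and the beta-catenin antagonists Ctnnbip1 and Cby1 at -0.034 (0.093) and -0.0076 (0.065), in the authors' deposited table.

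TCF/LEF factors bind DNA for the pathway. Tcf7 and Tcf7l1, the first a typical activator and the second mainly a repressor, had log2 fold changes of 0.083 (SE 0.19) and 0.056 (0.16) in the authors' deposited table, both with mean normalised counts under 100. Their relatives Tcf7l2 and Lef1, which are thalamic in the adult forebrain and do not belong to the set, are given for comparison. In KI cortex Tcf7l2 fell to 0.528 of WT (95% interval 0.41 to 0.68, adjusted p = 0.0022 by DESeq2), and the authors' deposited table put Lef1 at 1.06 (0.864 to 1.31, adjusted p = 0.9999 by DESeq2). The difference between these genes was not tested. Both genes belong to the list of thalamic markers, which was written with earlier results of these data known. With them included, the median log2 fold change of that list was -0.48. Tcf7l2 was 1 of its 4 markers past the threshold, all lower, and Lef1 was its 1 marker above 0. The part of thalamic tissue in the Tcf7l2 value was not tested.

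Target genes outside the feedback loop were near 0. The D-type cyclin genes Ccnd1 and Ccnd2 had log2 fold changes of 0.032 (SE 0.065) and 0.035 (0.10) in the authors' deposited table, with intervals of 0.935 to 1.12 and 0.891 to 1.18 of WT. Myc, encoding a growth-promoting transcription factor, stood at 0.039 (0.18) in that table, at a mean normalised count of 77.9. Bmp4, a growth factor of the TGF-beta family, had 0.936 of the WT level (95% interval 0.747 to 1.17, unadjusted p = 0.567 by DESeq2) in the authors' deposited table. Joined with the feedback genes Axin2, Nkd1, Znrf3, Rnf43, Lgr5, Apcdd1 and Tcf7, the 11 target genes had a median log2 fold change of 0.032. Of these 11, 7 (63.6%) were above 0 and 4 below, where 51.6% of all genes were above 0. None passed the adjusted threshold. For 10 of the 11 (90.9%), against 87.7% of all genes, a change as large as that of Chd8 lay outside the 95% interval. The exception was Rnf43.

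**Figure D3:**
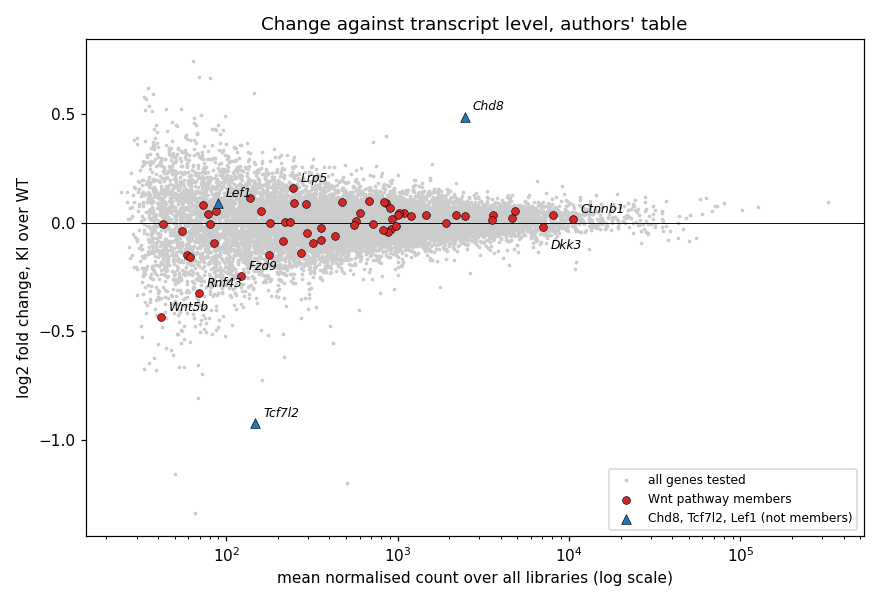
Log2 fold change, KI over WT (y axis), against mean normalised count over all libraries (x axis, log scale), both from the authors' deposited table. Grey points are all genes tested, red points the 57 listed members and blue triangles Chd8, Tcf7l2 and Lef1, which are not members. Abundant members such as Ctnnb1 and Dkk3 sit close to 0, and Wnt5b and Rnf43 lie among weakly expressed genes with a similar scatter.

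Sorted by the class assigned to each gene, the 33 genes classed as promoting signalling had a median log2 fold change of 0.0001 with 17 (51.5%) above 0. That class takes in every ligand and Frizzled gene of the set, also Wnt5a, Wnt5b and Fzd3, whose main roles given above lie elsewhere. The 18 listed genes classed as restraining signalling had a median of 0.0095 with 11 (61.1%) above 0, against 51.6% of all genes. Dkk3, Tcf7l1 and the target genes Ccnd1, Ccnd2, Myc and Bmp4 were placed in neither group.

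A further 130 genes of the wider pathway, again without Tcf7l2 and Lef1, were listed from textbook knowledge, with earlier results of these data known. The authors' deposited table holds 107 of them. None passed an adjusted p of 0.05 in either direction (DESeq2). Their median log2 fold change was 0.012 and 63 were above 0, while 2 higher and 1 lower had an unadjusted p under 0.05, which is the case for 1.34% and 1.88% of all genes. The lower one was Sostdc1, a secreted inhibitor of BMP and Wnt signalling, at 0.76 of WT in KI cortex (95% interval 0.588 to 0.983, unadjusted p = 0.0368 by DESeq2) in the authors' deposited table. Sostdc1 is also 1 of the 10 choroid plexus markers, whose median, with Sostdc1 included, was -0.33. The part of choroid plexus tissue in its value was not tested. The higher ones were Lgr6, an R-spondin receptor, at 1.34 of WT (1.02 to 1.76, unadjusted p = 0.0374) and Frzb, a secreted Frizzled-related antagonist, at 1.13 (1.01 to 1.28, unadjusted p = 0.0405 by DESeq2) in the authors' deposited table. With 3 genes named per direction by p, the others were on the higher side Gpc4, a glypican that binds Wnt, at a log2 fold change of 0.15 (SE 0.084), and on the lower side Vangl1, a planar polarity protein, at -0.30 (0.20), and Carm1, an arginine methyltransferase, at -0.074 (0.053), in the authors' deposited table. Medians by group were 0.022 for 8 other ligands, 0.066 for 10 other receptors, 0.0096 for 4 other antagonists, 0.006 for 32 cytoplasmic regulators, 0.014 for 25 nuclear factors, 0.027 for 14 planar polarity genes and 0.018 for 15 other targets. Lgr6 is counted both among the other receptors and among the other targets.

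Cell types that send or receive Wnt signals in the cortex were compared through their markers. Median log2 fold changes were 0.0085 for 7 endothelial markers, -0.0084 for 7 astrocyte markers, 0.069 for 8 excitatory neuron markers, -0.059 for 6 inhibitory neuron markers, -0.079 for 7 oligodendrocyte markers, -0.025 for 6 microglial markers, -0.032 for 6 mural cell markers and -0.09 for 8 striatal markers. Values were above 0 for 4 of 7 endothelial, 3 of 7 astrocyte, 7 of 8 excitatory neuron and 1 of 6 inhibitory neuron markers. Among 7 oligodendrocyte and 8 striatal markers none was above 0, against 1 of 6 microglial and 2 of 6 mural cell markers. Over all genes the share was 51.6%. No member of these 8 lists passed the adjusted threshold (DESeq2). The unadjusted p was under 0.05 for 1 excitatory neuron marker, higher in KI, and for 1 endothelial, 1 astrocyte and 2 oligodendrocyte markers, all lower. Over all genes 1.34% were higher and 1.88% lower at that threshold. The members' median of 0.0084 lay within the range of these lists, and the part of cell composition in it was not tested.

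**Figure D4:**
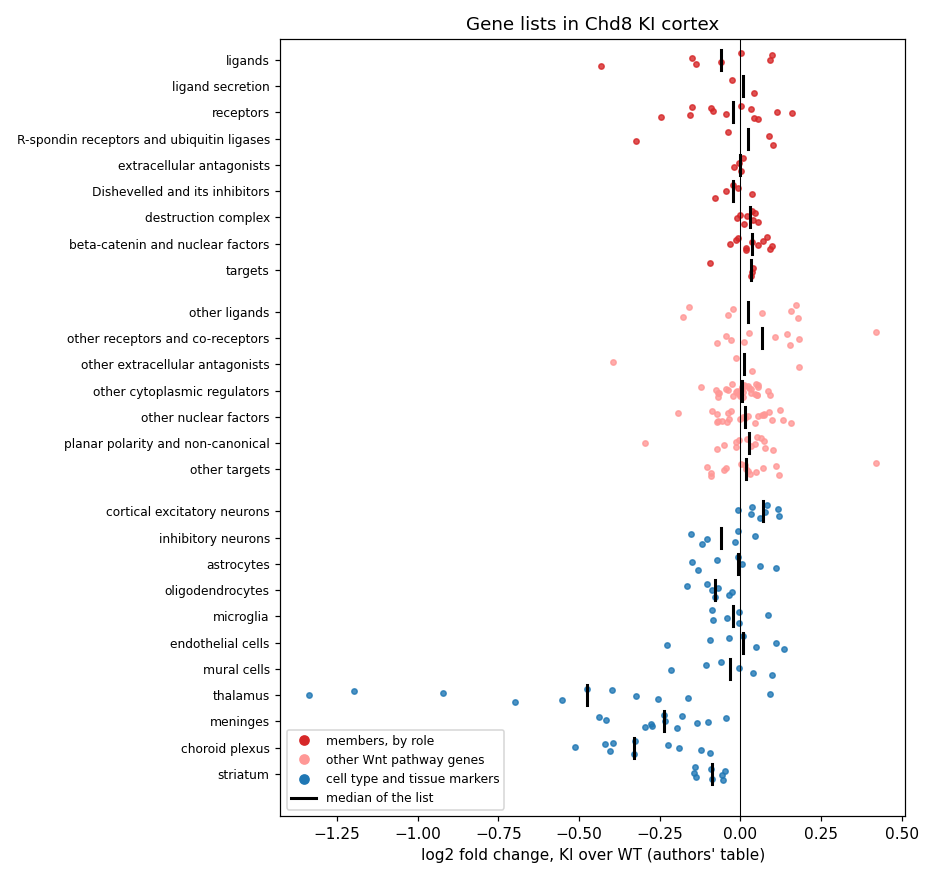
Log2 fold change, KI over WT (x axis), of every listed gene in the role groups of the set (red), in other Wnt pathway groups (pink) and in marker lists of cell types and adjoining tissue (blue), from the authors' deposited table. Each point is a gene and each black bar the median of its list. Pathway medians lie between -0.062 and 0.066, and those of thalamic, meningeal and choroid plexus markers at -0.48, -0.24 and -0.33.

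Some of these genes share exon sequence with neighbours, and the use of strand in the authors' counting is not given, so reads there cannot be told apart. Over 10% of exon bases lay in another gene of the GENCODE M21 annotation for 7 members. The share was 28.3% for Gsk3a, 25.8% for Ctnnbip1, 23.4% for Ccnd1, 19.7% for Dvl2, 17.8% for Fzd5, 16.1% for Sfrp2 and 15.1% for Ctnnb1, whose 3′ neighbour on the opposite strand is Ulk4. Wnt5b, Rnf43 and Fzd9, the members with the smallest p in their groups, shared none. In GRCm38.p6, Wnt5b lies on chromosome 6 from 119432531 to 119544824, Rnf43 on chromosome 11 from 87663087 to 87735539 and Fzd9 on chromosome 5 from 135248938 to 135251047. Axin2 lies on chromosome 11 from 108917828 to 108950783 and Ctnnb1 on chromosome 9 from 120933400 to 120960507, and all values are for whole genes.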

How the data were processed

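The data are the authors' deposited table of 1 comparison of 5 KI with 5 WT cortex libraries. Per the submitters' processing notes, reads were handled with Trimmomatic 0.39, HISAT2 2.1.0, featureCounts 2.0.0 and DESeq2 1.26.0 on mm10, with settings, annotation, strand and model formula not given in the sources used here. Per the file headers the table holds a mean normalised count (a signal value of the authors), a deposited log2 fold change, its standard error and Wald score from the authors, and the authors' p-value and adjusted p-value. Counts of single libraries were not used here, so depth is unknown and no SD or n of individual values can be given. The lowest mean normalised count was 24.4.

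Computed here, with Python 3.11.15, numpy 2.4.6, pandas 2.3.3 and scipy 1.17.1, were 95% normal intervals, levels per kilobase of the longest GENCODE M21 transcript, list counts and medians, and motif counts in RefSeq promoters. Symbols and coordinates came from RefSeq for GRCm38.p6, the assembly behind mm10, which named 13497 of the 13661 genes. Symbols matched 57 of 58 members. The threshold was an adjusted p of 0.05. Of the recomputations, the removal of the length trend, the Benjamini-Hochberg step and the robust SD were tested on simulated data, and the others were not. Members, lists, markers and tests were chosen with earlier results of these data known. Genes with full statistics are those with an unadjusted p under 0.05 and the 1 with the smallest p in each role, while other p-values or intervals (those of Axin2, Ctnnb1, Wnt7a, Wnt7b, Lrp5, Lgr4, Fzd3, Gsk3a, Gsk3b, Ccnd1 and Ccnd2) were added after their values were seen.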

Additional observations from a re-analysis of the deposited data

How the results depend on the processing

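With mean count minimums of 50 or 200, centring on the median gene, removal of the transcript length trend, Wald scores divided by their robust SD (0.855), and adjusted thresholds of 0.1 and 0.01, no member passed, the lowest adjusted p being 0.678. Over all genes 10 passed as deposited and 23 after the rescaling. The members with an unadjusted p under 0.05 numbered 0 as deposited, and 1, Wnt5b, both after centring (3.26% of all genes) and after the rescaling (6.21% of all genes), while at an unadjusted threshold of 0.1 there were 2. The members' median log2 fold change of 0.0084 became -0.0066 with the length trend removed, with 26 of 57 above 0. With a count minimum of 200 it became 0.016, with 26 of 41 (63.4%) above 0, against 52.2% of all genes. Wald scores and length had a Spearman correlation of 0.248 across 13098 genes, which are not independent. At a count minimum of 200, the medians of ligands, receptors and antagonists changed sign, to 0.014, 0.0013 and 0.0031, that of nuclear factors became 0.016 and that of the R-spondin group 0.094 over 2 genes. Without the length trend the median of the destruction complex became -0.00027. The error of these medians could not be estimated without values of single libraries. No paired analysis was possible because the table has no columns for single libraries. Leaving out replicates and other count tools were not run for the same reason. Weak expression limits precision: none of the 16 members under a mean count of 200 had an interval within ±0.25, against 2.17% of all genes under that count.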
